A study of Mus musculus with 19 samples.

Results

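The genes described here encode the proteins of the mitochondrial ribosome. They were taken from the arrays as every probe set with a single gene symbol beginning with Mrpl or Mrps and a number, where the signal exceeded the 40th percentile of its array on at least 2 arrays. Of 45101 probe sets, 156 carried such a symbol, and 150 of these passed, covering 76 genes among 14996 genes tested. By name 47 belonged to the large subunit (Mrpl) and 29 to the small subunit (Mrps). By placement in the ribosome 49 were large-subunit proteins, because Mrps30 and Mrps18a sit in the large subunit, 26 were small-subunit proteins, and Mrps36 is a subunit of the 2-oxoglutarate dehydrogenase complex that carries a mitoribosome name. Another 4 probe sets were shared with a second gene and were left out.

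The mitochondrial ribosome translates the few respiratory chain proteins that mitochondrial DNA encodes. Its RNAs come from mitochondrial DNA, but all of its proteins are encoded in the nucleus, made in the cytosol and imported. Some of these proteins descend from the bacterial ribosome, and others were added later and occur in mitochondria alone.

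The cells were NIH3T3, an established mouse fibroblast line, kept in 0.1% serum for 48 h to stop them dividing and then treated with bFGF at 50 ng/ml. U0126 at 20 µM, an inhibitor of the MEK kinases that activate ERK, was used to ask which responses need that pathway. The 11 groups were quiescent cells (3 arrays, of which 1a and 1b came from experiment 1 and were averaged), FGF for 1 h (1 array) and for 4, 7 and 12 h (2 arrays each), the same times with U0126 from -0.5 h (1 array at 1 h, 2 arrays at each later time), FGF for 7 h with U0126 added at 1 h, and FGF for 12 h with U0126 added at 7 h (1 array each). All groups shared the starvation, and all but the quiescent arrays had FGF, so hours in culture and handling cannot be told apart from FGF, and no array had U0126 without FGF. Groups with 1 array came from experiment 1 alone. No label states that the experiments used separate cultures, so p-values measure the spread between these samples, which may be technical.

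In bulk RNA, fewer cells of a type and less RNA per cell cannot be told apart. All 9 fibroblast markers were detected well, with a summed signal of 128234 to 211846 per array. Markers of other cell types were low (summed signal of at most 403 over 3 macrophage, 200 over 3 endothelial, 209 over 3 muscle and 99.2 over 2 adipocyte markers), except for Krt14, an epithelial keratin with a median signal of 1814, which was lower at 12 h of FGF by 1.52 on the log2 scale (adjusted p = 2e-05), and Epcam, with a median signal of 298.5. The other epithelial markers Cdh1, Krt8 and Krt18 had median signals of 46.1, 58.5 and 30.9, and none was called at 12 h. Of the fibroblast markers Col1a1, Pdgfra, Pdgfrb and Thy1 were also lower at 12 h by limma (-0.98, -0.86, -1.37 and -0.98, adjusted p from 0.000202 to 0.00989). Col1a2, Col3a1, Vim, S100a4 and Fn1 were not called. Whether the Krt14 signal comes from separate cells, and its part in the results below, was not tested.

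Members were detected on nearly every array. The probe set used for each gene, the one of highest mean, had a median signal between 385 (Mrps27) and 5215 (Mrpl13), while the 40th percentile of an array lay between 35.3 and 56.5. The 6 probe sets that did not pass were further probe sets of Mrpl1, Mrpl19, Mrpl21, Mrpl41, Mrpl42 and Mrps26, with median signals of 6.2 to 24.1 and 0 arrays above the limit. Just inside the limit were further probe sets of Mrpl47 (2 arrays above it), Mrpl54 (4 arrays) and Mrpl15 (5 arrays). All 76 genes were therefore tested, each through a probe set well above the limit.

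At 12 h of FGF 18 of the 76 mitochondrial ribosomal protein mRNAs were higher than in quiescent cells by limma. The median member was lower than in quiescent cells by 0.08 on the log2 scale on the single 1 h array, or by 0.17 with the experiment as a replicate block, and higher by 0.09 at 4 h, 0.15 at 7 h and 0.23 at 12 h, against medians over all genes of 0.00, -0.09, -0.05 and -0.01. At 12 h 63 of 76 members lay above the quiescent mean (82.9%, against 49.1% of all genes). Of the 76, 61 moved the same way in both experiments, whether up or down. The share of all genes that did so was not counted. By limma with Benjamini-Hochberg adjustment over all genes, the 18 members higher at 12 h were 23.7% of the 76 (against 8.55% of all genes), and 1 was lower (1.32%, against 11.8%). Among the 6377 genes whose median signal lay in the members' range, 13.3% were higher and 19.5% lower at 12 h.

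Fewer members had passed the test earlier. At 1 h no member passed (0.48% of all genes did, with an unadjusted p under 0.05 for 3 members), at 4 h 2 were higher (3.92% of all genes) and 0 lower (4.98%), and at 7 h 6 were higher (5.45%) and 0 lower (7.2%). A fit that took the experiment as a replicate block gave larger counts, 12 higher and 1 lower at 4 h (7.12% and 10.6% of all genes), 16 and 4 at 7 h (9.16% and 12.5%) and 28 and 2 at 12 h (12.4% and 17.6%), and 2 were lower at 1 h (1.57% in either direction). Those at 1 h were Mrpl33 and Mrpl19. The counts hang on single arrays: at 12 h 3 members were higher once quiescent replicate 2 was left out (3.95%, against 5.47% of all genes in that fit), 4 without FGF 12 h replicate 1 (5.26%, against 5.42%) and 7 without its replicate 2 (9.21%, against 6.24%). In the first 2 of these fits the members' share was no higher than that of all genes. At 4 h the count was 0 without quiescent replicate 2 or either FGF array and 4 without quiescent replicate 1b, and at 7 h it was 0 without quiescent replicate 2 or FGF 7 h replicate 1.

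**Figure D1:**
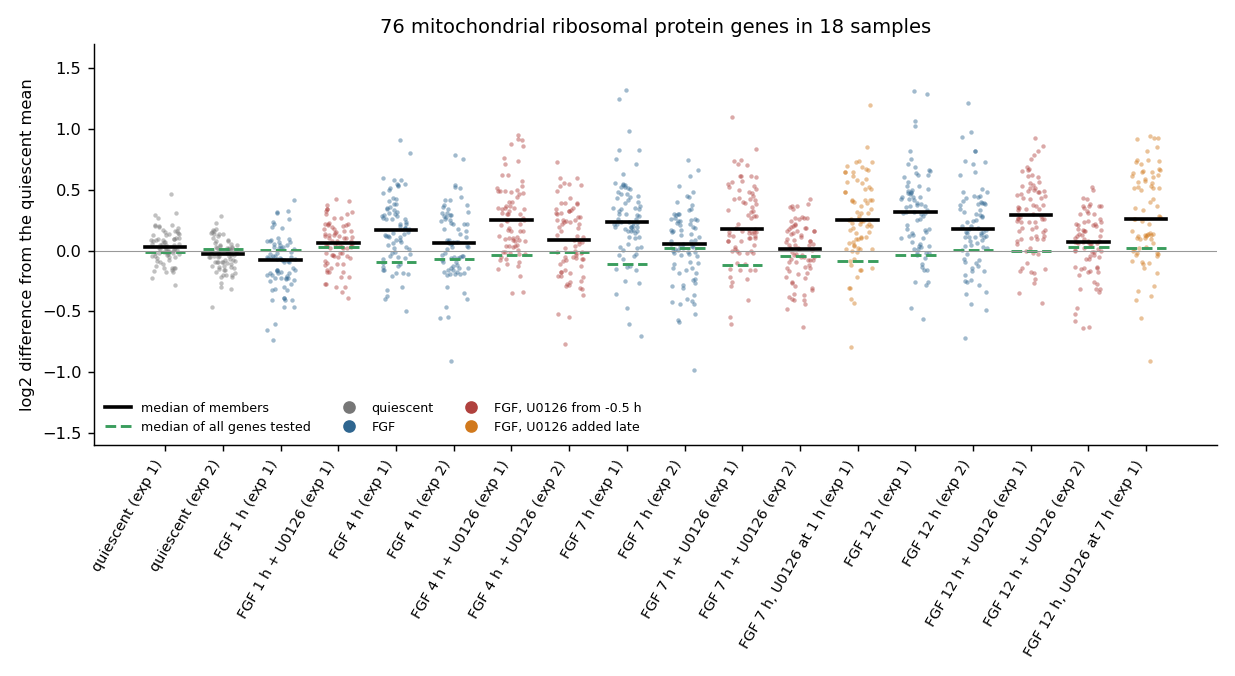
Each dot is 1 of the 76 members on 1 sample, as the log2 difference from the mean of the quiescent samples; black bars are the members' medians and dashed green bars the medians of all genes tested. Members' medians lie at 0.32 and 0.18 in the FGF 12 h samples of experiments 1 and 2, and in each of the 7 groups with both experiments the sample of experiment 1 is higher.

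The members' medians by sample show how far the experiments differed. At 4 h of FGF they were 0.17 in experiment 1 and 0.06 in experiment 2, at 7 h 0.24 and 0.05, and at 12 h 0.32 and 0.18. With U0126 from -0.5 h they were 0.25 and 0.08 at 4 h, 0.17 and 0.02 at 7 h, and 0.29 and 0.07 at 12 h. Experiment 2 was lower in each of these groups, with a median difference of -0.17 over members and groups (experiment 2 minus experiment 1), and both experiments lay above 0 from 4 h on.

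Mrps25, a small-subunit protein with no bacterial counterpart, had the largest rise at 12 h. Its signal was 731, 783 and 649 on the quiescent arrays, 673 at 1 h, 1029 and 874 at 4 h, 1684 and 1185 at 7 h, and 1733 and 1649 at 12 h. Every array from 4 h on was above every quiescent array, and the 12 h groups did not overlap. The mean rose from 703 ± 76.2 (SD, n = 2) to 1691 ± 59.8 (SD, n = 2). On the log2 scale with the offset the difference was 1.25 ± 0.20 (SE), or 2.39-fold, with an adjusted p of 0.00049 by limma. Its other probe sets gave 1.29 (adjusted p = 0.0142) and, at a low signal, 0.94 (adjusted p = 0.148).

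Mrpl12, the stalk protein that helps recruit translation factors to the ribosome and is also known to bind the mitochondrial RNA polymerase, rose from 2532, 2393 and 1868 on the quiescent arrays to 5341 and 4231 at 12 h. The log2 difference was 1.14 ± 0.30 (SE, adjusted p = 0.0144), or 2.21-fold, and 0.99 ± 0.30 at 7 h (adjusted p = 0.0437). Mrpl20, whose bacterial counterpart acts early in building the large subunit, went from 1641, 1703 and 1239 to 2950 and 2756, a log2 difference of 0.98 ± 0.25 (adjusted p = 0.0124). Its 4 h arrays, at 2527 and 2442, were already above every quiescent array, although the adjusted p there was 0.071 (0.00106 with the replicate block). Mrps6, a small-subunit protein of bacterial descent, read 4528, 4436 and 4047 in quiescent cells, 4681 and 4113 at 4 h, 7197 and 6531 at 7 h, and 7527 and 7535 at 12 h. Its difference from quiescence was 0.04 at 4 h, and it was higher by 0.69 ± 0.16 at 7 h (adjusted p = 0.0123) and 0.82 ± 0.16 at 12 h (adjusted p = 0.00225).

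The start regions of these members, and of the pair that U0126 raised most (Mrps18a and Mrpl17, added after their values were seen), were read from RefSeq to show what lies around the genes that moved. Each run is 250 bases before to 50 bases after the annotated start, 5′ to 3′ on the strand of the gene, on build GRCm38.p6: Mrps25 at chr6:92183974-92184273 (minus), Mrpl12 at chr11:120484387-120484686 (plus), Mrpl20 at chr4:155802628-155802927 (plus), Mrps6 at chr16:92058086-92058385 (plus), Mrps18a at chr17:46110754-46111053 (plus) and Mrpl17 at chr7:105811038-105811337 (minus). Capitals mark matches on either strand to the E-box CACGTG (read by Myc and related factors), the ETS core CCGGAAG (read by GABP among others), the NRF1 core GCGCATGCG and the YY1 core AAGATGGCG, none of which contains another.
Mrps25: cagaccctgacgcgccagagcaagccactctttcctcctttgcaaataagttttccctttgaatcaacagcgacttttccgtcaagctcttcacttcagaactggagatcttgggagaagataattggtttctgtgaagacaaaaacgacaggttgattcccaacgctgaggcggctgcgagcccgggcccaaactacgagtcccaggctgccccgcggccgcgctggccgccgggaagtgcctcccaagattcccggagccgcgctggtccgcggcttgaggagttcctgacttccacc
Mrpl12: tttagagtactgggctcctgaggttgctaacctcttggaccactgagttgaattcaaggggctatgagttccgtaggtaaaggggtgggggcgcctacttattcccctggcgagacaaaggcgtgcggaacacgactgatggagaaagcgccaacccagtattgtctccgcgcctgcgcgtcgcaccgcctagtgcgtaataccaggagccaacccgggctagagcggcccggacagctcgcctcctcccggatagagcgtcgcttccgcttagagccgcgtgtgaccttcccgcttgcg
Mrpl20: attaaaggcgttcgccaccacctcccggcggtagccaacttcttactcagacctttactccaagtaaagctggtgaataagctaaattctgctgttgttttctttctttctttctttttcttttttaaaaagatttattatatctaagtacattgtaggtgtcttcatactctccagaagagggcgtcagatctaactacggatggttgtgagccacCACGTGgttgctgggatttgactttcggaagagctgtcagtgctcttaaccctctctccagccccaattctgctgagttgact
Mrps6: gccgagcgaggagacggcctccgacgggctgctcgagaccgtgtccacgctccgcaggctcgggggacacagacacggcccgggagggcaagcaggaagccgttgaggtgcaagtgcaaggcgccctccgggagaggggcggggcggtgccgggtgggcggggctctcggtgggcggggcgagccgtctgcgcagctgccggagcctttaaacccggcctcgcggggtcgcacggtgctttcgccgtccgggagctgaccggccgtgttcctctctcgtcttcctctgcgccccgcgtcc
Mrps18a: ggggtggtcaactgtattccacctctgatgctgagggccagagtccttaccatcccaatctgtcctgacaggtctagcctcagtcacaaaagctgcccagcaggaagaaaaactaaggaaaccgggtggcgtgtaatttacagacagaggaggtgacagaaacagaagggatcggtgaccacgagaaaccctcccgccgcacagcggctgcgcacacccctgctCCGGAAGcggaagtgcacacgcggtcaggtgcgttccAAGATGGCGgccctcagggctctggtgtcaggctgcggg
Mrpl17: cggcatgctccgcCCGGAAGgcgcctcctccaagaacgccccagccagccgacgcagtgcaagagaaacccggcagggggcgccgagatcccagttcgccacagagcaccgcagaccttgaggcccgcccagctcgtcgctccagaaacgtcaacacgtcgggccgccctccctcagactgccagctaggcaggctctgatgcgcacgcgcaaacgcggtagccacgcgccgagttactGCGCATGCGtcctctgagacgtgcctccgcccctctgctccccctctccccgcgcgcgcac

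Of these 6 windows, those of Mrps25, Mrpl12 and Mrps6 hold none of the 4 motifs in these exact letters. That of Mrpl20 has an E-box 33 bases before the start. Mrps18a has an ETS core 26 bases before and a YY1 core 11 bases after the start, and Mrpl17 an ETS core 237 bases and an NRF1 core 11 bases before it. RefSeq windows were found for 67 of 76 members (73 windows), and 37 of the 67 members had at least 1 of the motifs. The ETS core was in 34.2% of member windows against 8.86% of all 32851 windows, the NRF1 core in 9.59% against 1.75%, the YY1 core in 11% against 1.4%, and the E-box in 9.59% against 7.15%. Shares are of windows, not of genes. The 32851 windows were not limited to genes tested here or to genes of like signal. Whether members differ in motifs from genes of like signal was therefore not tested. The 7 windows with an E-box belong to 5 of the 67 members, because Mrpl2 has several overlapping windows.

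The change at 12 h was set beside the motifs. The median log2 difference was 0.20 for the 25 members with an ETS core and 0.24 for the 42 without, 0.13 for the 7 with an NRF1 core and 0.23 without, 0.24 for the 8 with a YY1 core and 0.22 without, and 0.23 for the 5 with an E-box and 0.22 without. Of the 16 members with a window that were higher at 12 h, 5 had an ETS core, 2 a YY1 core, 1 an E-box and 0 an NRF1 core. These are descriptions of letters in a window, not of bound factors. Only the exact letters of each motif were searched. Members with a variant spelling alone were therefore placed among those without the motif.

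A further 14 members were higher at 12 h. Mrpl18, whose bacterial counterpart binds the smallest ribosomal RNA, read 2087, 2067 and 1373 in quiescent cells and 3548 and 2806 at 12 h, a log2 difference of 0.90 ± 0.30 (adjusted p = 0.0474). Its call was lost with an offset of 1 before log2, with no filter and without the variance trend. It was also lost in a limma fit of all probe sets (adjusted p = 0.0578). Mrpl34 read 1166, 1881 and 1458 against 2491 and 2272, a difference of 0.69 ± 0.17 (adjusted p = 0.0112), and Mrpl49, found only in mitochondrial ribosomes, 812, 834 and 853 against 1298 and 1402, a difference of 0.68 ± 0.19 (adjusted p = 0.0178). In each of the 3 genes the 12 h arrays did not overlap the quiescent ones. Mrps22, a small-subunit protein specific to mitochondria, gave 0.63 ± 0.17 (adjusted p = 0.0158). The remaining 9 besides Mrpl50 were Mrpl3, Mrpl21, Mrpl42, Mrpl15, Mrpl13, Mrps7, Mrpl16, Mrps10 and Mrps11, with differences between 0.44 and 0.54 and adjusted p from 0.0191 to 0.0499.

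Mrpl16 and Mrpl50 were the members that had passed the test by 4 h. Mrpl16, a large-subunit protein that in bacteria lies close to the tRNA sites, read 2259, 2182 and 1966 in quiescent cells, 3132 and 3006 at 4 h, 3057 and 2866 at 7 h, and 2955 and 2824 at 12 h. All FGF arrays from 4 h on were above all quiescent arrays, and the differences were 0.55, 0.50 and 0.46 (each SE 0.13, adjusted p = 0.0158, 0.0212 and 0.0201). Mrpl50, specific to mitochondria, read 1052, 1188 and 1154, then 1651 and 1971, 1874 and 1649, and 1551 and 2015, with differences of 0.66, 0.62 and 0.63 (each SE 0.18, adjusted p = 0.0302, 0.0309 and 0.0192). The 4 h calls of both were lost without quiescent replicate 2 (adjusted p = 0.155 for Mrpl16 and 0.123 for Mrpl50), without FGF 4 h replicate 1 (0.0979 and 0.0531) and without its replicate 2 (0.0774 and 0.231). For both the value at 4 h was at least that at 12 h, while Mrps6 had a value of 0.04 at 4 h. The second probe set of Mrpl50 gave 0.22 at 12 h (adjusted p = 0.66).

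Mrpl24 alone was lower at 12 h. This counterpart of a bacterial protein that starts large-subunit assembly read 1281, 1291 and 1303 in quiescent cells and 932 and 784 at 12 h, with 1030 and 1016 at 4 h between them. It was 1.51-fold lower at 12 h, a log2 difference of -0.59 ± 0.16 (adjusted p = 0.0166). Mrpl48 gave -0.42, which passed only with the replicate block.

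**Figure D2:**
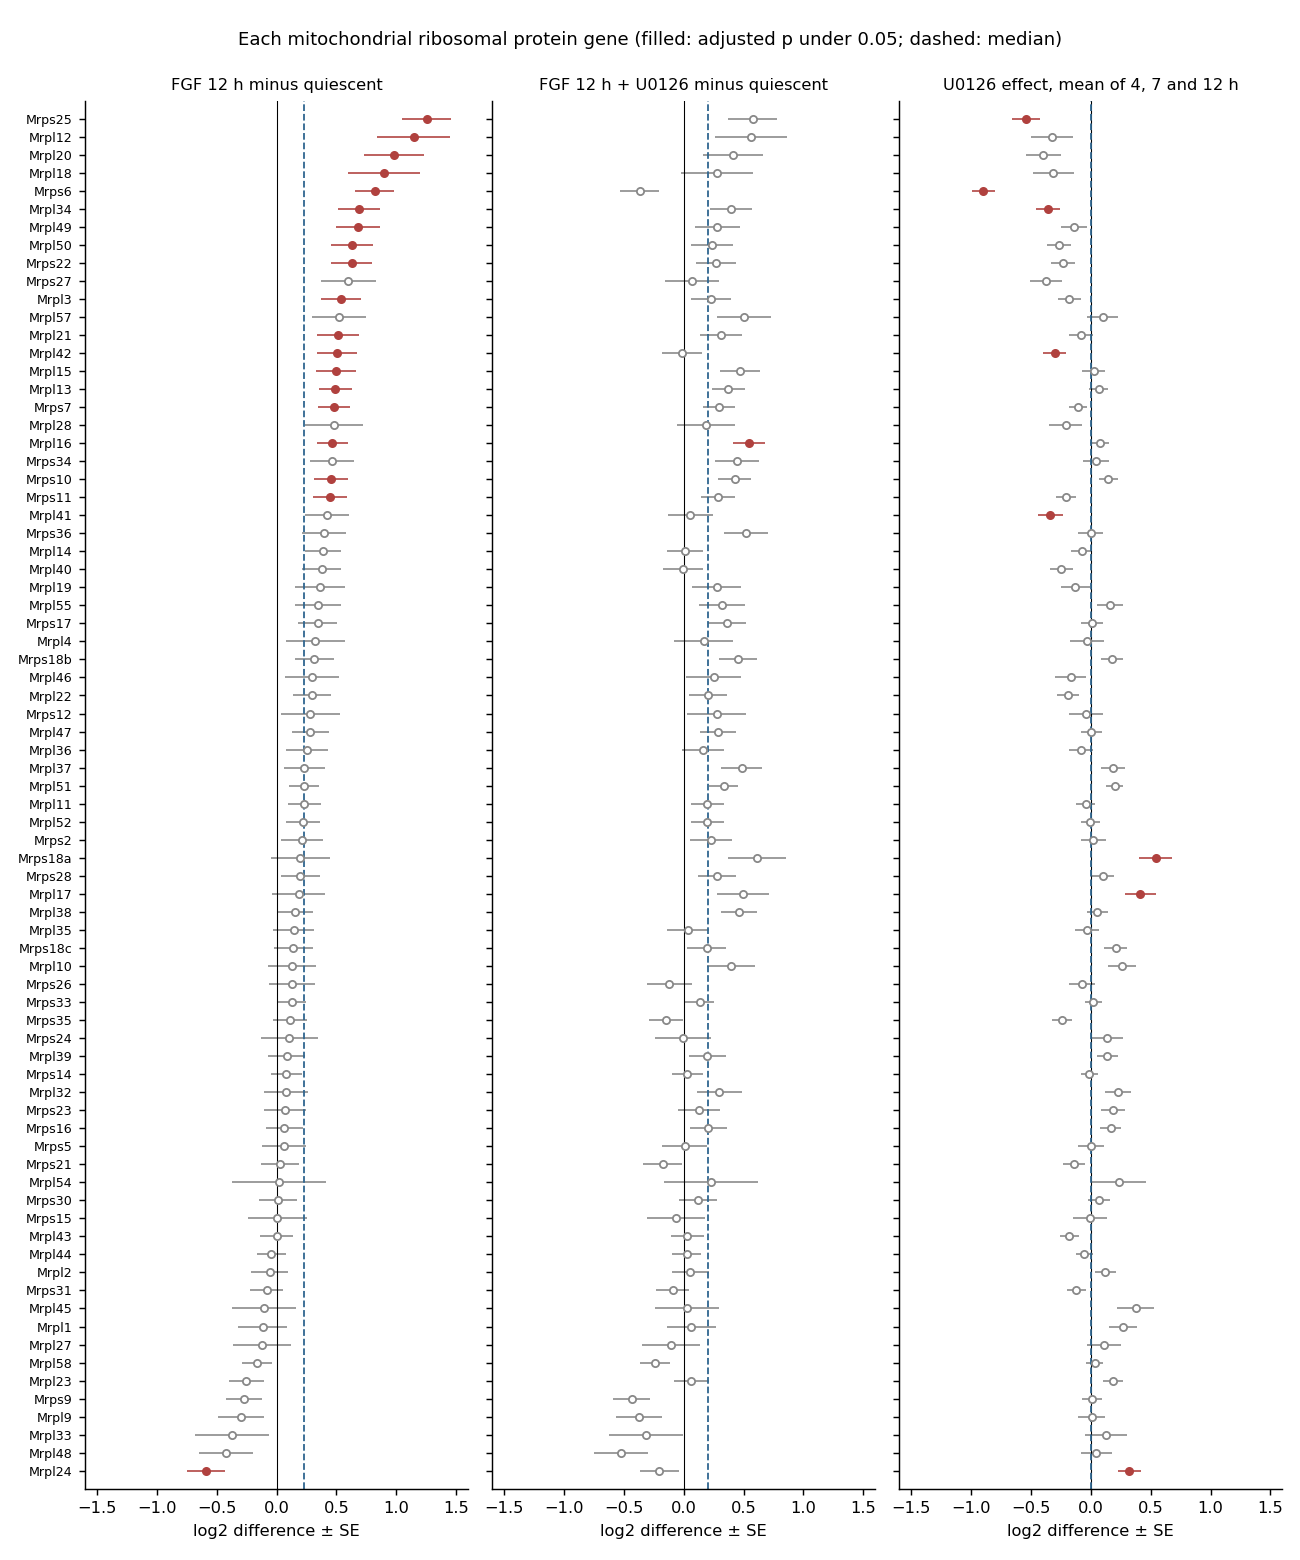
Log2 differences ± SE of each of the 76 members, sorted by the change at 12 h of FGF (left), with the change at 12 h in cells that also had U0126 (middle) and the mean effect of U0126 (right); filled points have an adjusted p under 0.05 and dashed lines are medians. The left and middle medians are 0.23 and 0.20, the right one is 0.00, and Mrps6 is the member whose left and middle values differ most.

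By class, 9 of 28 large-subunit proteins shared with bacteria were higher at 12 h (32.1%) and 1 lower (3.57%), with a median of 0.31. Of 21 mitochondrial additions to the large subunit 3 were higher (14.3%, median 0.22). So were 4 of 17 small-subunit proteins shared with bacteria (23.5%, median 0.20) and 2 of 9 mitochondrial additions to the small subunit (22.2%, median 0.13). Of all genes 8.55% were higher, and of genes of like signal 13.3%, so the 14.3% lies near the latter share. The class medians all lay within the span of 0.13 to 0.31, and differences between classes were not tested. Mrps36 had a difference of 0.39, not past the test without the block. In all, 28 members were called in at least 1 of 20 comparisons and 48 in none. The 28 are 36.8% of members, beside 36.6% of all genes and 57.2% of the genes of like signal.

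The 48 were Mrpl1, Mrpl2, Mrpl4, Mrpl9, Mrpl10, Mrpl11, Mrpl19, Mrpl22, Mrpl23, Mrpl27, Mrpl28, Mrpl32, Mrpl33, Mrpl35, Mrpl36 and Mrpl55 of the bacterial large-subunit class, Mrpl39, Mrpl40, Mrpl44, Mrpl45, Mrpl46, Mrpl47, Mrpl48, Mrpl52, Mrpl54, Mrpl57, Mrpl58 and Mrps30 of the mitochondrial large-subunit class, Mrps2, Mrps5, Mrps9, Mrps12, Mrps14, Mrps15, Mrps16, Mrps17, Mrps18c, Mrps21, Mrps24 and Mrps28 of the bacterial small-subunit class, Mrps23, Mrps26, Mrps27, Mrps31, Mrps33, Mrps34 and Mrps35 of the mitochondrial small-subunit class, and Mrps36. Of these 20 were called in none with the replicate block either; the 56 called in either fit are 73.7% of members, beside 53.8% of all genes and 79.8% of those of like signal. Probe sets could disagree: 40 members had several, and in 29 of the 40 all had the same sign at 12 h. None was called both ways. Mrps5, which made the list of 48, had a difference of 0.06 at its brightest probe set, but 2 of its other 4 were higher (0.57, adjusted p = 0.0456, and 0.87, adjusted p = 0.0168). Counted as probe sets, 20 of 150 were higher at 12 h (7.87% of all probe sets were) and 1 was lower.

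Between successive times the members moved most from 1 to 4 h, where Mrps18b (0.77 ± 0.20, adjusted p = 0.0374) and Mrpl43 (0.65 ± 0.17, adjusted p = 0.0408) were higher (5.18% of all genes were called) and the members' median step was 0.24, against -0.12 over all genes. With the replicate block 24 members were higher and 0 lower in that step (14.3% of all genes called); the 1 h group has 1 array. No member passed from 4 to 7 h (0.12% of all genes, 3 members at an unadjusted p under 0.05), and with the block Mrps25 and Mrps6 did (1.9%). From 7 to 12 h Mrpl14 was higher by 0.66 ± 0.15 (adjusted p = 0.0392, 1.83% of all genes called), and with the block Mrpl18 as well (4.72%). Without FGF 4 h replicate 1 or replicate 2, 1 call was left over the 3 steps.

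In cells with U0126 most members also lay above quiescence. At 12 h the median member was 0.20 above quiescence in cells with U0126, against 0.23 without it, and 60 of 76 were above 0, against 51% of all genes. The mean effect of U0126 over 4, 7 and 12 h had a median of 0.00 over members and 0.01 over all genes. Of 76 members, 5 were lower with U0126 (10.3% of all genes) and 3 higher (11.7%), and among genes of like signal 16.6% were lower and 18.6% higher. With the replicate block 17 were lower (13.9% of all genes) and 9 higher (16.7%). The lower count was 3 without FGF 4 h replicate 1, FGF 4 h replicate 2, FGF 7 h replicate 1, FGF 7 h with U0126 replicate 2, FGF 12 h replicate 2 or FGF 12 h with U0126 replicate 2, and 9 without FGF 7 h with U0126 replicate 1. The higher count was 8 without FGF 7 h replicate 1, 6 without FGF 7 h with U0126 replicate 2, and 1 without FGF 4 h with U0126 replicate 1, FGF 7 h with U0126 replicate 1, FGF 12 h replicate 2 or FGF 12 h with U0126 replicate 1.

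Mrps6 was the member most reduced by U0126. Its signal with U0126 from -0.5 h was 5659 at 1 h, 3825 and 2911 at 4 h, 3658 and 2746 at 7 h, and 3545 and 3063 at 12 h. From 4 h on every array with U0126 was below every array with FGF alone at the same time and below every quiescent array. The difference from FGF alone was -0.39 at 4 h, -1.11 ± 0.16 at 7 h (adjusted p = 0.000592) and -1.19 ± 0.16 at 12 h (adjusted p = 0.000171), with a mean effect of -0.90 ± 0.09 (adjusted p = 6.35e-06). Added at 1 h, U0126 gave 3810 at 7 h, a difference of -0.85 ± 0.20 (adjusted p = 0.0281). Added at 7 h, it gave 4774 at 12 h, between the quiescent and the 12 h arrays, with -0.66 ± 0.20 (adjusted p = 0.0774, or 0.00127 with the replicate block). Its second probe set gave 0.73 (adjusted p = 0.00689) at 12 h of FGF and a mean U0126 effect of -0.86 (adjusted p = 1.6e-05).

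The locus of Mrps6 overlaps that of Slc5a3, a myo-inositol transporter gene, and their annotated starts lie 14 bases apart on the same strand. Slc5a3 moved alongside it: its signal was 5038, 3485 and 3396 in quiescent cells, 6757 and 7470 at 12 h of FGF and 2861 and 3160 at 12 h with U0126. The difference was 0.91 ± 0.18 at 12 h (adjusted p = 0.00205), and the mean U0126 effect -1.14 ± 0.10 (adjusted p = 1.44e-06). How much of the Mrps6 signal comes from transcripts of Slc5a3 was not tested.

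Mrps25 was the other member reduced by U0126 at a single time. It read 723 and 668 at 4 h, 1159 and 853 at 7 h and 1218 and 909 at 12 h with U0126, in every case below both arrays with FGF alone at that time. The mean effect was -0.54 ± 0.12 (adjusted p = 0.00355), and that at 12 h -0.68 ± 0.20 (adjusted p = 0.0421). Against quiescence it was still 0.58 ± 0.20 higher at 12 h with U0126 (adjusted p = 0.126, or 0.00604 with the block). Added at 7 h, U0126 gave 1347 on the 12 h array, with a difference of -0.32 (adjusted p = 0.571).

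The other members lower in the mean U0126 effect were Mrpl34 (-0.36 ± 0.10, adjusted p = 0.0181), Mrpl41, a mitochondrial addition to the large subunit (-0.34 ± 0.11, adjusted p = 0.0333), and Mrpl42 (-0.30 ± 0.10, adjusted p = 0.0379). In a limma fit of all probe sets, a second bright probe set of Mrpl41 gave -0.25 (adjusted p = 0.0765). At 12 h of FGF that probe set was higher by 0.69 (adjusted p = 0.00747), while the one used gave 0.42 and was not called. In the same fit a second probe set of Mrpl49 had a mean U0126 effect of -0.59 (adjusted p = 0.0112). At 12 h its U0126 effect was -0.87 (adjusted p = 0.0471). The Mrpl49 probe set used gave a mean effect of -0.14 and was not called. A dim probe set of Mrpl48 gave -0.695 (adjusted p = 0.0147), against 0.05 for the one used. Mrpl42 read 5613 and 7444 at 12 h of FGF and 4228 and 4789 with U0126, so its 12 h groups did not overlap. Members higher with U0126 were Mrps18a, a large-subunit protein despite its name (0.54 ± 0.14, adjusted p = 0.0115), Mrpl17, whose bacterial counterpart lines the exit of the peptide tunnel (0.41 ± 0.13, adjusted p = 0.0286), and Mrpl24 (0.32 ± 0.09, adjusted p = 0.0204). Mrps18a read 2468 and 1848 with U0126 against 1578 and 1204 at 4 h, 2277 and 1535 against 1477 and 1052 at 7 h, and 2312 and 1645 against 1705 and 1249 at 12 h. The groups overlapped at 12 h and not at 4 or 7 h, and within each experiment the array with U0126 was the higher one at all 3 times. Dim further probe sets of Mrpl17 gave 0.02 and -0.05.

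**Figure D3:**
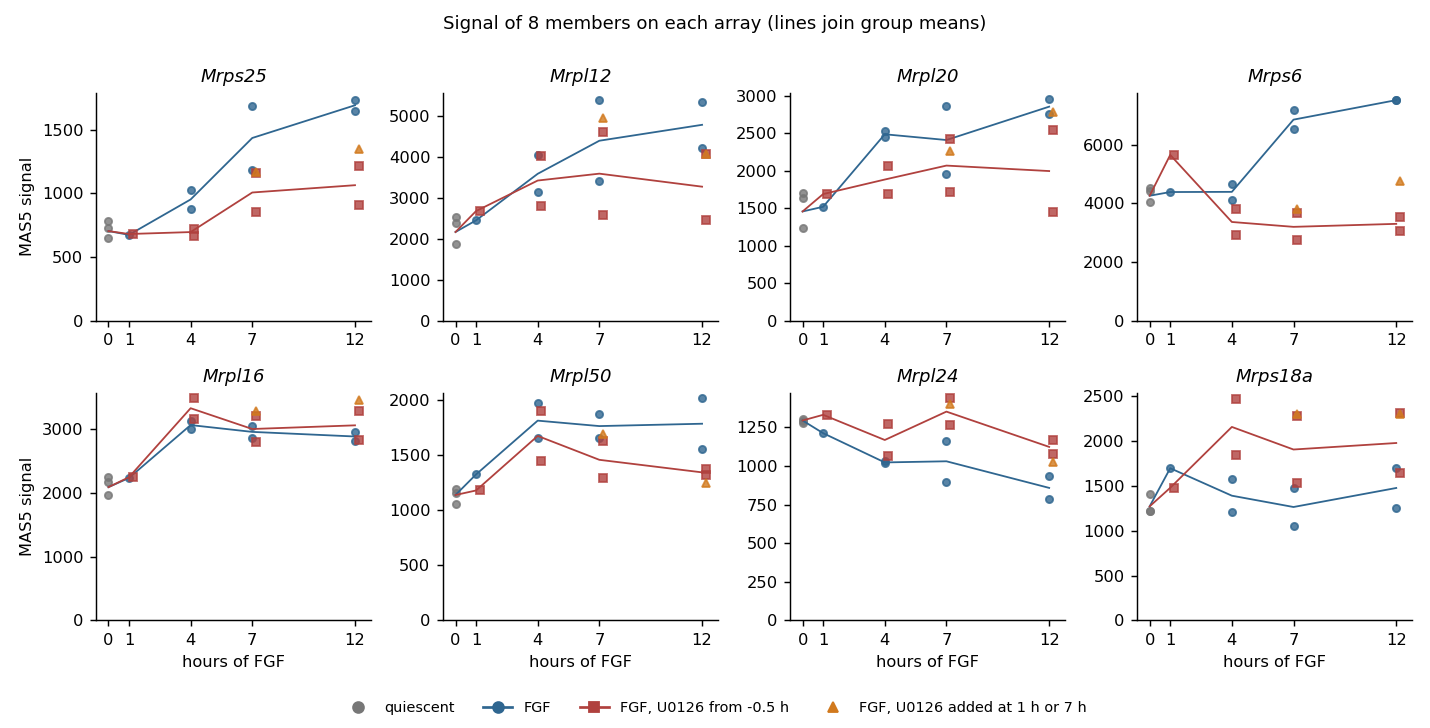
MAS5 signal against hours of FGF for 8 members; each point is 1 array, lines join group means, and both axes are linear with the signal starting at 0. Mrps6 with U0126 stays at or below the quiescent level from 4 h on, Mrpl16 is above the quiescent arrays from 4 h on with and without U0126, and in Mrps18a the means with U0126 are higher at 4, 7 and 12 h and the 1 h array is lower.

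Single times gave few calls for U0126. No member passed at 1 h (0.18% of all genes, 2 members at an unadjusted p under 0.05; with the block Mrpl33, 1.05%) or at 4 h (5.93%, 7 members at an unadjusted p under 0.05), 1 was lower at 7 h (6.07%) and 2 at 12 h (12%). With the replicate block 5 members were higher and 3 lower at 4 h (13% of all genes called), 3 higher and 4 lower at 7 h (12.5%) and 3 higher and 7 lower at 12 h (20.6%). Those 7 were Mrps6, Mrps25, Mrpl18, Mrpl12, Mrpl20, Mrpl42 and Mrpl40, from -1.19 to -0.38. Without FGF 12 h replicate 2 or FGF 12 h with U0126 replicate 2, 1 member was called over the 3 times.

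Compared with quiescent cells, those with U0126 had few members called higher. At 7 h the members' share was near that of all genes, and at 12 h it was below it. At 1 h none passed (0.113% of all genes, 0 members at an unadjusted p under 0.05). At 4 h 6 were higher, Mrps18b, Mrpl16, Mrpl37, Mrpl38, Mrpl13 and Mrps10 (0.71 to 0.48). That is 7.89% of members, against 3.31% of all genes, and 0 were lower (4.07%). At 7 h 3 were higher, Mrps10, Mrpl16 and Mrpl51 (3.95% of members, against 3.73% of all genes), and 0 lower (5.33%). At 12 h Mrpl16 was higher (1.32% of members, against 2.43%) and 0 were lower (2.99%). Among genes of like signal 5.99%, 6.81% and 4.11% were higher at 4, 7 and 12 h. Mrpl16 read 3499 and 3169 at 4 h, 3211 and 2804 at 7 h and 3297 and 2832 at 12 h with U0126, all above the quiescent arrays, with differences from quiescence of 0.67, 0.52 and 0.55 (each SE 0.13, adjusted p = 0.00575, 0.0223 and 0.0238). With the replicate block 18 were higher and 1 lower at 4 h (15% of all genes called), 14 and 2 at 7 h (18.5%) and 17 and 3 at 12 h (14.4%), with Mrps6 among the lower ones at each time. These counts too rest on single arrays. The 4 h count was 1 without quiescent replicate 2, 0 without FGF 4 h with U0126 replicate 1 and 2 without its replicate 2. The 7 h count was 0 without quiescent replicate 2 or FGF 7 h with U0126 replicate 1 and 1 without quiescent replicate 1b, and the 12 h count 0 without quiescent replicate 2 or FGF 12 h with U0126 replicate 1 and 2 without quiescent replicate 1b.

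For the 18 members higher at 12 h of FGF, the change from quiescence in the U0126 cells at 12 h ran from -0.37 (Mrps6) to 0.58 (Mrps25), with a median of 0.30 and 16 of 18 above 0, against 0.44 to 1.25 with a median of 0.58 for FGF alone. The 2 sets of values share the quiescent arrays, and the 18 were chosen on the second set, so their gap is a description. Mrpl15, Mrpl16 and Mrps10 read 0.47, 0.55 and 0.42 with U0126 and 0.49, 0.46 and 0.45 without it. Mrpl42 read -0.01 and 0.51.

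Late addition of U0126 gave 1 call. Beside Mrps6 at 7 h (3.59% of all genes called; 0 members without FGF 7 h replicate 2), no member passed at 12 h (5.05%, 10 members at an unadjusted p under 0.05). With the replicate block Mrps18a was also higher at 7 h (7.49%), and at 12 h 1 member was higher and 7 were lower (11.3%), Mrpl18 (-0.80) and Mrps6 (-0.76) by most. Late against early addition gave 0 members at 7 h (0% of all genes; 1 member at an unadjusted p under 0.05) and 0 at 12 h (0.674%; 3 members). The median member was 0.16 and 0.10 higher with late addition, or 0.08 and 0.04 with the block. The late arrays come from experiment 1, in which members read higher.

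The U0126 effect did not pass limma's F test for a difference between 4, 7 and 12 h in any member (1.03% of all genes did, and 2 members had an unadjusted p under 0.05). The smallest adjusted p, 0.23, was that of Mrps6, and with the replicate block it was 0.00755 (3.83% of all genes called). The next by p were Mrpl38 (0.20, -0.34 and 0.30 at 4, 7 and 12 h), Mrpl14 (0.19, -0.04 and -0.38), Mrpl43 (-0.34, -0.22 and 0.03) and Mrpl42 (-0.09, -0.29 and -0.52), with adjusted p from 0.388 to 0.883.

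Lists of other genes that make, feed or use the mitochondrial ribosome were counted in the same way. Of all genes, 8.55% were higher and 11.8% lower at 12 h of FGF (12.4% and 17.6% with the block). In the mean U0126 effect 11.7% were higher and 10.3% lower (16.7% and 13.9% with the block). Counts near or below these shares are not read as a response of a list. Of 23 genes for mitochondrial import and chaperones, 13 were higher at 12 h of FGF and 0 lower (56.5%, median 0.46). They were led by Timm8a1 (1.72 ± 0.15, adjusted p = 3.13e-06) and Timm9 (1.52 ± 0.33, adjusted p = 0.00406), small chaperones of the intermembrane space, Tomm40, the channel of the outer membrane (1.35 ± 0.16, adjusted p = 3.14e-05), and Timm50, a receptor of the inner-membrane translocase (0.94 ± 0.29, adjusted p = 0.0312). With U0126 their median at 12 h was 0.33, and 3 were lower and 2 higher in its mean effect (6 and 2 with the block), among them Timm8a1 (-0.56, adjusted p = 0.00024) and Tomm40 (-0.45, adjusted p = 0.00214).

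Of 4 mitoribosome subunits that carry other names none passed at 12 h (median 0.22; Chchd1, at 0.40, had an adjusted p of 0.0506, or 0.0128 with the replicate block), while Ptcd3 was lower (-0.37, adjusted p = 0.00479) and Chchd1 higher (0.26, adjusted p = 0.0244) with U0126. Of 25 assembly factors 3 were higher and 0 lower (median 0.01): Rcc1l (0.75, adjusted p = 0.011), Mrm3, which methylates the large ribosomal RNA (0.59, adjusted p = 0.0119), and C1qbp (0.55, adjusted p = 0.00671). With the replicate block 3 were higher and 2 lower. In the mean U0126 effect 3 were higher (12%, against 11.7% of all genes). These were Mtg1 (0.40, adjusted p = 0.00284), Nsun4 (0.39, adjusted p = 0.00816) and Tfb1m (0.36, adjusted p = 0.0183). The 1 that was lower was Noa1, a GTPase (-0.40, adjusted p = 0.0179), or 4% against 10.3%. The list's median was 0.10. With the block 6 were higher and 1 lower (16.7% and 13.9% of all genes). Of 13 translation factors Oxa1l, the insertase that receives new proteins from the ribosome, was lower (-0.94 ± 0.16, adjusted p = 0.000604) and 0 were higher (median -0.11), against 3 lower and 2 higher with the block. With U0126 Mtfmt, which formylates the initiator tRNA, was higher (0.61, adjusted p = 0.002), and Tufm, the elongation factor, lower (-0.41, adjusted p = 0.0136).

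Of 16 mitochondrial tRNA synthetases Mars2 was higher (1.50 ± 0.50, adjusted p = 0.0487, at a median signal of 63) and Fars2 lower (-0.56, adjusted p = 0.0156), with a median of -0.11, and with the block 2 were higher and 3 lower. Fars2 and Lars2 were higher with U0126 (0.25, adjusted p = 0.049, and 0.32, adjusted p = 0.0421), and 0 lower, against 4 higher and 1 lower with the block. None of 10 genes for transcription and replication of mitochondrial DNA passed at 12 h (median -0.10), while with the block 1 did, Tfam, the factor that packages mitochondrial DNA (0.37, adjusted p = 0.0268 with the block and 0.206 without). With U0126 Top1mt (0.52, adjusted p = 0.00142) and Tefm (0.30, adjusted p = 0.0427) were higher and Tfam lower (-0.36, adjusted p = 0.027), and with the block 3 were higher and 3 lower. Of 80 nuclear-encoded respiratory chain subunits 1 was higher and 2 were lower (median 0.05): Ndufab1 (0.58, adjusted p = 0.011), Ndufa6 (-0.82, adjusted p = 0.000869) and Cox7a2l (-0.67, adjusted p = 0.0084). With the block 6 were higher and 4 lower. In the mean U0126 effect 4 were higher (5%, against 11.7% of all genes) and 2 lower (2.5%, against 10.3%), with a median of 0.01. The higher ones were Cox6a2 (0.77, adjusted p = 0.0143), Uqcrq (0.37, adjusted p = 0.0122), Ndufa6 (0.29, adjusted p = 0.0179) and Ndufa7 (0.23, adjusted p = 0.0312). The lower ones were Sdhd (-0.33, adjusted p = 0.0045) and Atp5a1 (-0.24, adjusted p = 0.02). With the block 13 were higher and 3 lower (16.7% and 13.9% of all genes). Of 42 cytosolic ribosomal proteins 1, Rpl12, was higher at 12 h (0.59, adjusted p = 0.00506), with a median of -0.04 at 12 h and 0.31 on the 1 h array (0.35 with the block), where the mitochondrial ones had a median of -0.08 (-0.17 with the block). Rps6 was higher with U0126 (0.22, adjusted p = 0.0435) and 0 were lower, and with the block Rpl37 was higher as well.

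Of 13 regulators of nuclear genes for mitochondria (median 0.34 at 12 h and -0.20 in the mean U0126 effect), Myc was higher at 12 h (0.50 ± 0.16, adjusted p = 0.0367) and lower in the mean U0126 effect (-0.36 ± 0.09, adjusted p = 0.0101). The rise of Myc was larger earlier, at 1.11 on the single 1 h array, 1.02 at 4 h (adjusted p = 0.00102) and 0.77 at 7 h (adjusted p = 0.00505). The members' median, in contrast, was highest at 12 h. Pprc1 and Ppargc1b, coactivators of the PGC family, were lower with U0126 (-0.27, adjusted p = 0.0317, and -0.51, adjusted p = 0.0256), with 12 h values of 0.39 (adjusted p = 0.0791, or 0.0227 with the block) and 0.54 (adjusted p = 0.182). At 4 h Pprc1 was higher (0.70, adjusted p = 0.00741). None of the others passed at 12 h or in the mean U0126 effect, except that with the block Gabpa was lower with U0126 (-0.20, adjusted p = 0.0447): at 12 h Gabpa read -0.07, Gabpb1 0.38, Gabpb2 -0.11, Nrf1 -0.07, Yy1 -0.12, Max 0.01, Esrra 0.34, Mycn 0.71, Perm1 0.51 and Ppargc1a -0.47, the last 3 at median signals of 60.1, 54.3 and 34.6.

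**Figure D4:**
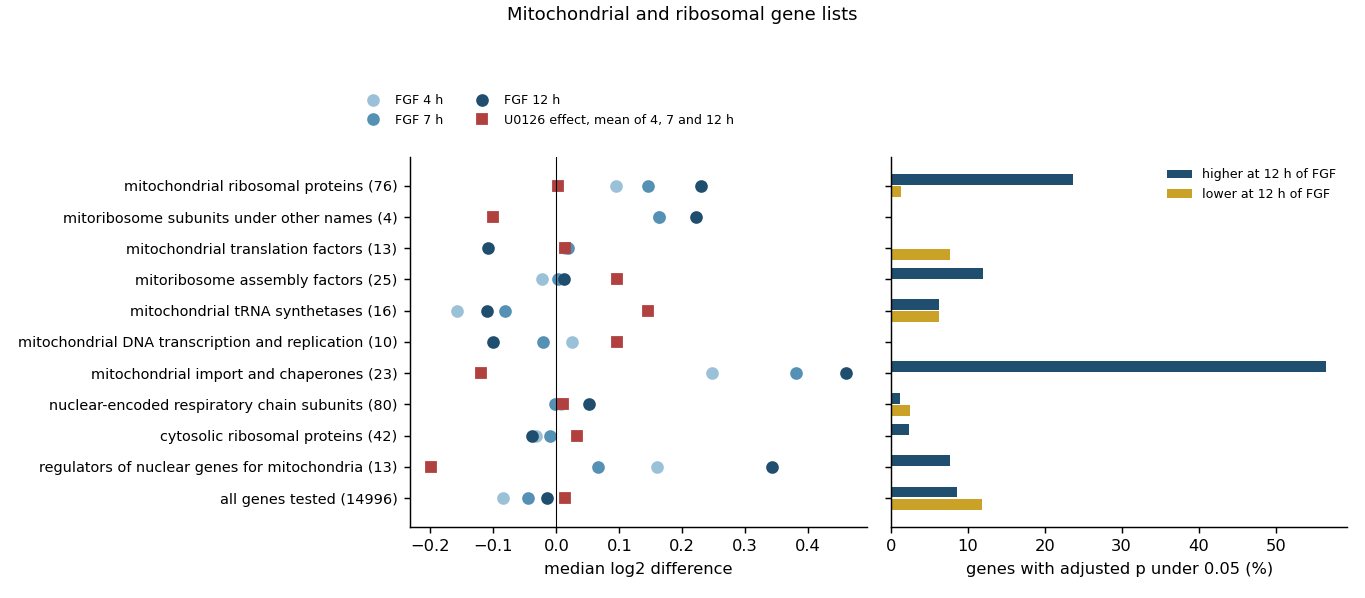
Median log2 difference of each gene list at 4, 7 and 12 h of FGF and in the mean U0126 effect (left), and the percentage of its genes higher or lower at 12 h (right), with the number of genes tested in parentheses. Mitochondrial ribosomal proteins have a median of 0.23 and 23.7% higher at 12 h, between import genes (0.46 and 56.5%) and all genes tested (-0.01 and 8.55%).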

How the data were processed

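RNA from NIH3T3 cells was hybridised to 19 Affymetrix mouse arrays. Per the labels' protocols the deposited values are MAS5 signal intensity, scaled by the authors to a trimmed mean of 500, and the trimmed mean (2% at either end) was 500 on every array. Detection calls and MAS5 version are not given in the sources used here. The number of arrays limits the precision. Probe sets were named from the platform annotation, and all 76 members were in the RefSeq gene table.

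Log2 was taken after adding 13.6, the 20th percentile, which understates changes of low genes. Quiescent arrays 1a and 1b were averaged. All 18 samples were fitted in limma 3.58.1 (R 4.3.3, eBayes with a variance trend, 7 residual and 7.47 prior degrees of freedom), two-sided, with Benjamini-Hochberg adjustment over 14996 genes and a limit of 0.05; groups with 1 array were assumed to vary like the others. The fit was tested on simulated data whose noise was independent between samples. That simulation does not cover samples of 1 experiment that deviate together. Same-numbered samples deviated together in all 21 pairs of the 7 groups with both experiments (r from 0.13 to 0.31, median 0.21), so the experiment number was taken as a pairing and fitted as a replicate block (6 residual degrees of freedom). A group of like signal means genes within the members' range of median signal.

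Members and lists were chosen with earlier results of these data known. Named members were, among those called and moving alike in both experiments, the 8 largest rises and 5 largest falls at 4, 7 and 12 h, the 8 largest falls and 5 largest rises with U0126, the 5 smallest p of the F test, uncalled members by name, and the 4 largest called changes of each other list with every regulator; further names are called members chosen after their values were seen. Genes of like pattern were ranked by Pearson correlation over 11 group means. Figures were drawn with matplotlib.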

Additional observations from a re-analysis of the deposited data

How the results depend on the processing

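The values are means of 1 or 2 samples, and most counts moved with at least 1 of the arrays left out, while the F test count stayed at 0. For the replicate block the counts stand in the report: 12, 16 and 28 members higher at 4, 7 and 12 h, 17 lower and 9 higher with U0126, 18, 14 and 17 higher in U0126-treated cells at 4, 7 and 12 h, 16 called for U0126 at single times, 9 for late U0126, 26 between successive times and 1 in the F test. Without the variance trend 0, 1 and 4 were higher at 4, 7 and 12 h, 2 lower and 0 higher with U0126, 1, 0 and 0 higher in U0126-treated cells, 1 called for U0126 at single times, 0 for late U0126 and 0 between times. With the probe set of highest variance 1 was higher at 4 h, 7 at 12 h, 2 at 4 h with U0126, and 1 was called for U0126 at single times. Counted as probe sets, 9 were lower with U0126, 3 and 2 higher with U0126 at 4 and 12 h, 4 called for U0126 at single times, 2 for late U0126 and 5 between times. With only the compared groups fitted 4 and 3 were higher at 4 and 7 h, 1, 0 and 0 with U0126 at 4, 7 and 12 h, and 0 changed between times. Quantile normalization gave 2 higher at 12 h with U0126, 75th percentile scaling 0 called for late U0126, the stricter filter 2, no filter 1 called for U0126 at single times, and 3 separate quiescent arrays 1 between times.

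Leaving out 1 replicate of the groups compared gave ranges of 0 to 4 members higher at 4 h, 0 to 6 at 7 h and 3 to 16 at 12 h (3 to 17 over arrays of any group), 3 to 9 lower and 1 to 8 higher with U0126, 0 to 4, 0 to 4 and 0 to 2 higher in U0126-treated cells at 4, 7 and 12 h, 1 to 3 called for U0126 at single times, 0 to 1 for late U0126 and 1 to 2 between times.

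Of 25 results on named members, 4 kept their call under every alternative run: Mrps25 and Mrps6 at 12 h and in the mean U0126 effect. Over all alternatives 372 kept it and 108 lost it. Mrpl41 and Mrpl42 in the mean U0126 effect lost it under 10 and 9 of 24 alternatives, and Mrpl18 at 12 h under 9 of 17. The mean U0126 effect on Mrpl17 turned to -0.0533 with the probe set of highest variance. The causes were not tested. Both other scalings moved the median of all genes by under 0.1 and left 17 and 18 members higher at 12 h.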

Other observations

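The 10 genes outside the family whose group means followed the members' median most closely, over 11 group means and among 12348 genes, were Ndufa8 (Pearson r = 0.964), Med28 (0.956), Ppie (0.951), Tsfm (0.94), Cisd1 (0.935), Mtbp (0.934), Il18bp (0.934), Timm50 (0.932), Mtmr2 (0.929) and Ndufab1 (0.928). The group means share arrays and experiments, and the best of 12348 correlations over 11 points is high by selection, so these are descriptions. At 12 h of FGF Mtbp was higher by 1.36 ± 0.16 (adjusted p = 3.66e-05), Cisd1, an iron-sulfur protein of the outer mitochondrial membrane, by 1.00 ± 0.16 (adjusted p = 0.000503), and Tsfm, a mitochondrial elongation factor, by 0.41 ± 0.24 (adjusted p = 0.274). Among the members themselves Mrps17 followed the family's median most closely (r = 0.967), and Mrps9 least (r = -0.66); 8 members had a negative r.

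Several members overlap a neighbouring gene in the RefSeq annotation, beside Mrps6 and Slc5a3. The neighbours given with values here are those called at 12 h of FGF, where 8.55% of all genes were higher and 11.8% lower. Not called were Nr2c2, Tcp1, Ighmbp2, Gga3, Mif4gd, Tmem63b, Gcfc2, Cyb5rl, Rsph9, Twnk, Rab6a, Rrnad1 and 6430562O15Rik. Wdfy1, which overlaps Mrpl44, had a log2 difference of -1.92 at 12 h of FGF (adjusted p = 1.56e-05), and Klc4, which overlaps Mrpl2, one of -1.49 (adjusted p = 0.000251), while Mrpl44 and Mrpl2 had differences of -0.04 and -0.06. Eme1, which overlaps Mrpl27, was higher by 2.19 ± 0.59 (adjusted p = 0.016) and Ska3, which overlaps Mrpl57, by 1.94 ± 0.37 (adjusted p = 0.00155), against -0.12 and 0.52 for the members. Syvn1, which overlaps Mrpl49, was lower by 0.60 on the log2 scale (adjusted p = 0.0279), where Mrpl49 was higher. Cuedc1, which overlaps Mrps23, had a difference of -0.71 (adjusted p = 0.0326), against 0.07 for Mrps23.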
